A study of Mus musculus with 2 samples.

Results

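The genes studied here encode the mGluR6 cascade, the signalling chain by which ON bipolar cells of the retina answer photoreceptors. The 10 listed genes are Grm6, Trpm1, Gpr179, Nyx, Lrit3, Gnao1, Gng13, Rgs7, Rgs11 and Pcp2, and they were chosen by name, with earlier results of these data known. Probes were assigned by matching the RefSeq accession that the scanner files give for each probe to its gene symbol. This found 12 probes for 9 of the 10 genes, among 27238 named probes for 20662 genes. Lrit3 had no matched probe and is not analysed here. Of the 9 genes, 7 had 1 probe each, Trpm1 had 3 and Gnao1 had 2.

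The samples were dissected retinas of mice at postnatal day 14. One array held RNA labelled Mef2d KO and the other RNA labelled wild-type (WT), on 1 one-colour Agilent microarray each. Mef2d codes for a MEF2 transcription factor. The comparison asks how retinal expression differs without Mef2d. With 1 array per genotype, differences could not be tested against a spread between replicates, and p-values are left out. Both arrays lay on 1 slide and were read in 1 scan, per the file headers. The labels give neither the allele, the strain, the sex nor the number of animals, and whole retina mixes ON bipolar cells with all other retinal cells, so that fewer cells of a type and less RNA per cell cannot be told apart.

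In the dark, photoreceptors release glutamate onto the tips of ON bipolar dendrites. There mGluR6, a metabotropic glutamate receptor, activates the G protein Go, which closes the cation channel TRPM1. Light lowers glutamate, Go is shut off by RGS proteins that speed GTP hydrolysis, and TRPM1 opens. Loss of several of these genes in mice and people removes the b-wave of the electroretinogram, and in people it causes congenital stationary night blindness.

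A difference below is log2 of Mef2d KO minus WT, after scaling each array to the 75th percentile of its probe signals, 858 on the array labelled Mef2d KO and 807 on the WT array. Its error, written as ±, was combined from the error that the scanner software assigns to each spot, and leaves out the variation between animals. The 2 Mef2d probes gave differences of 0.43 ± 0.20 and 0.14, so the targeted gene was no lower in the library labelled Mef2d KO. Their place relative to the deletion was not given in the sources used here, and every direction below goes by the label alone. Mef2c differed by -1.28 (-0.58 with normexp background) and Mef2b by -0.45 (-0.030 with normexp background). Mef2a differed by -0.23 by its brighter probe and by 0.011 by its other probe. Xist was well above background on the array labelled Mef2d KO only, at least 51.7-fold higher, and Eif2s3y, Ddx3y, Uty and Kdm5d, all Y-linked and detected on each array, differed by -0.36 to -0.76 (Kdm5d, the lowest, by -0.096 with normexp background), so the effects of genotype and of the sex makeup of the samples cannot be told apart, which includes X-linked Nyx. Lens markers well above background on both arrays numbered 9, of which Mip, Crybb2, Cryba1, Cryaa, Crygs, Cryba4, Cryab and Bfsp2 differed by -4.09 to -1.31 and Bfsp1 by 0.30, with a summed signal of 37757 on the array labelled Mef2d KO and 152870 on the WT array. Lim2 was well above background on the WT array only, and its dim value on the array labelled Mef2d KO was 6.60-fold lower. Cone markers held 2 of 9 at least 2-fold lower (1.74% of all genes), Arr3 (-5.36) and Pde6h (-2.42), with Opn1sw at -0.53 and Opn1mw at -0.31. The other 5 were Cngb3 (-0.29), Gnat2 (-0.13), Pde6c (-0.015), Gngt2 (0.039) and Cnga3 (0.29), and the median of the 9 was -0.29. The part of these in the values of the mGluR6 cascade was not tested. The share of spots well above background was 69.6% on the array labelled Mef2d KO and 75.5% on the WT array, and no spot was saturated.

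None of the 9 measured genes of the mGluR6 cascade was 2-fold apart between the 2 arrays. That count is near the background, as 1.74% of all genes were lower by that much and 0.618% were higher. The log2 differences of the 9, Mef2d KO minus WT, lay between -0.45 and -0.016. All 9 were negative, against 51.3% of all genes, though the sign depends on the scaling, as given below. Gng13, Gpr179 and Pcp2 had the lowest values, and the other 6 genes were less than 0.32 apart on the log2 scale.

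**Figure D1:**
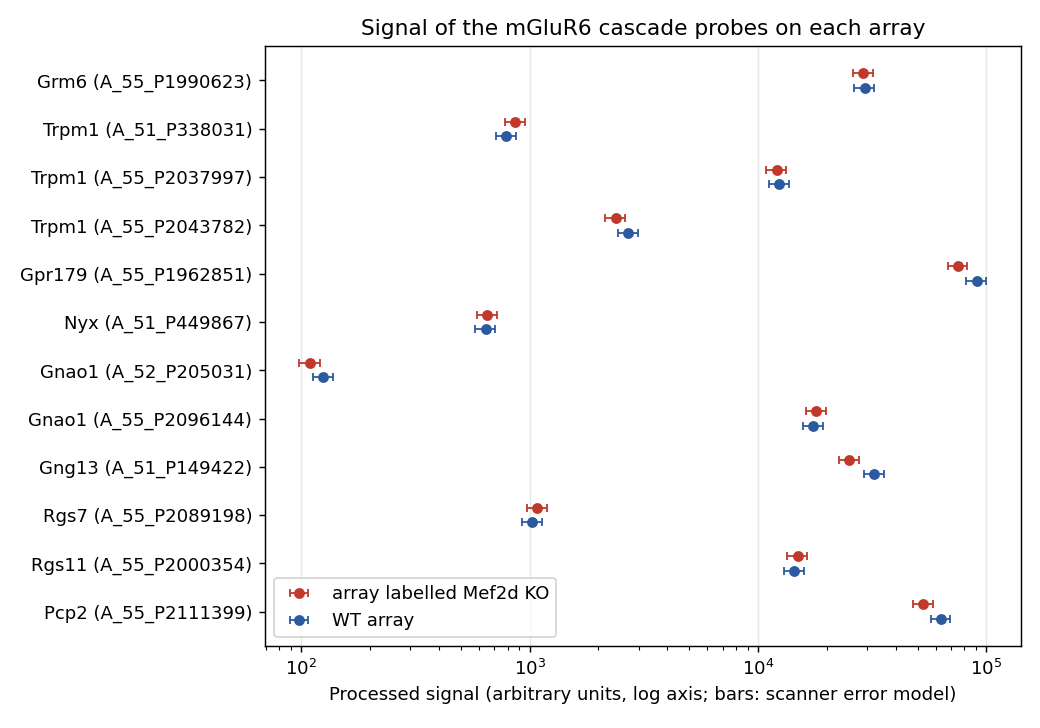
Processed signal of the 12 probes (arbitrary units, log axis) on the array labelled Mef2d KO (red, upper point of each row) and on the WT array (blue, lower point), before scaling. Bars are the scanner error model's error of 1 spot. The points of each pair lie close together, and the bars of the 2 arrays do not meet for Gng13.

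The receptor gene Grm6 had a processed signal of 28826 on the array labelled Mef2d KO and 29332 on the WT array. After scaling, its difference was -0.11 ± 0.20. Nyx encodes nyctalopin, a leucine-rich repeat protein that places TRPM1 at the dendritic tips. Its signal was 651 on the array labelled Mef2d KO and 642 on the WT array, a difference of -0.068 ± 0.20. Both differences were smaller than the error that the scanner software assigns. In size, each exceeded the median SD of 0.061 between replicate spots of other probes, given below, Nyx only slightly.

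Trpm1 encodes the cation channel at the end of the cascade. Its brightest probe (A_55_P2037997) gave 12051 on the array labelled Mef2d KO and 12376 on the WT array, a difference of -0.13 ± 0.20. The other 2 probes lay on either side of it. A_55_P2043782, matched to the same transcript, gave 2384 on the array labelled Mef2d KO and 2698 on the WT array, a difference of -0.27 ± 0.20. A_51_P338031, matched to another transcript of the gene, gave 865 on the array labelled Mef2d KO and 789 on the WT array, a difference of 0.045 ± 0.20. The last was the one probe of the 12 with a positive difference, so the 3 Trpm1 probes did not share a direction.

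Gpr179 encodes an orphan receptor that anchors the RGS proteins at the dendritic tips. Its signal was 75074 on the array labelled Mef2d KO and 90628 on the WT array. The difference was -0.36 ± 0.20, or 1.28-fold lower, and 11.0% of all genes had a lower one. The middle 50% of the 148 genes at its level, 6 to 7 log2 units above the 75th percentile, differed by -0.13 to 0.078, so Gpr179 lay below that range.

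Gnao1 encodes the alpha subunit of Go. Its brighter probe (A_55_P2096144) gave 17986 on the array labelled Mef2d KO and 17424 on the WT array, a difference of -0.042 ± 0.20. Its dimmer probe (A_52_P205031), matched to another transcript, gave 109 on the array labelled Mef2d KO and 125 on the WT array, a difference of -0.28 ± 0.21 that was -0.11 with normexp background correction. Gnao1 is also expressed by many other neurons, so whole retina does not read the bipolar share alone.

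Gng13 encodes a G protein gamma subunit that pairs with the beta subunit Gnb3 in ON bipolar cells. Its signal was 25080 on the array labelled Mef2d KO and 32276 on the WT array. The difference was -0.45 ± 0.20, or 1.37-fold lower, the lowest of the 9 genes, and 8.07% of all genes had a lower one. The middle 50% of the 376 genes at its level, 5 to 6 log2 units above the 75th percentile, differed by -0.060 to 0.12. Grm6 lies in the same range of level. Gng13 minus Gnao1, by the brighter Gnao1 probe, was -0.41 ± 0.29 in log2 difference, which is under 2 errors, and with the mean over its 2 probes Gnao1 itself differed by -0.16.

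The RGS genes were nearly equal on both arrays. Rgs7 and Rgs11 encode the GTPase accelerators that end Go signalling in ON bipolar cells, both bound to the beta subunit Gnb5. Rgs7 gave 1079 on the array labelled Mef2d KO and 1026 on the WT array, a difference of -0.016 ± 0.20. Rgs11 gave 14906 on the array labelled Mef2d KO and 14388 on the WT array, a difference of -0.036 ± 0.20. With median scaling Rgs7 stood at 0.16 and Rgs11 at 0.14.

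Pcp2 encodes a GoLoco protein that binds Go and is found in rod bipolar cells and cerebellar Purkinje cells. Its signal was 52998 on the array labelled Mef2d KO and 63200 on the WT array. The difference was -0.34 ± 0.20, or 1.27-fold lower, with 11.6% of all genes lower. Pcp2 shares its range of level with Gpr179, and it too lay below the middle 50% of the genes there.

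**Figure D2:**
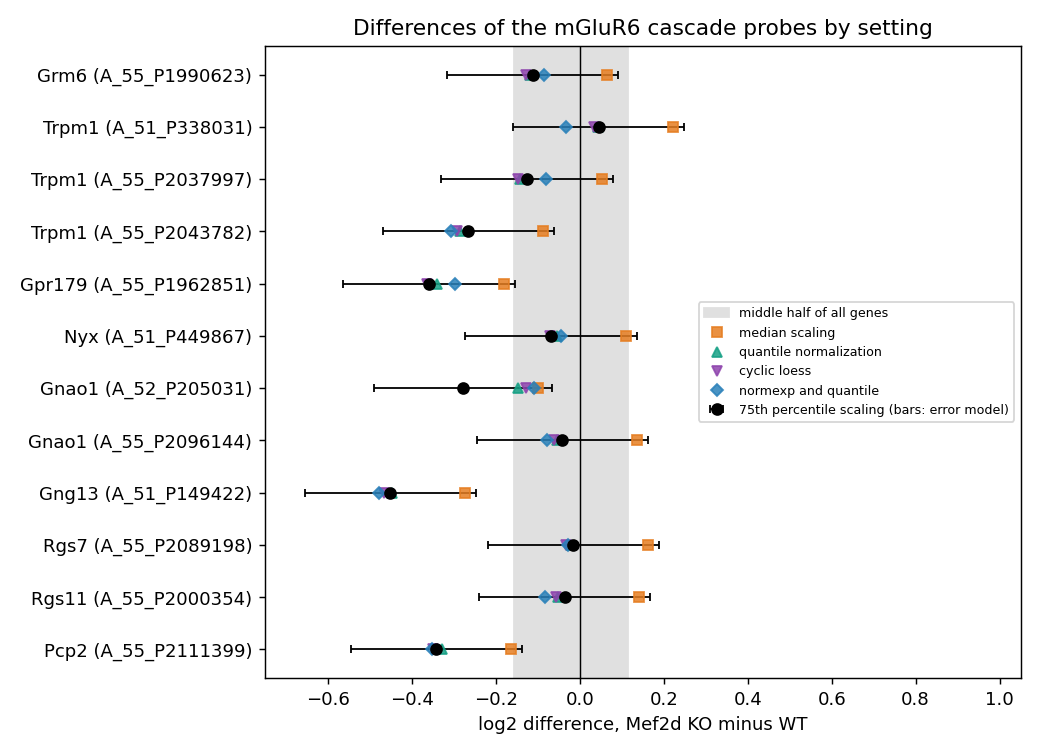
Log2 difference, Mef2d KO minus WT, of each of the 12 probes (rows) with 75th percentile scaling (black, bars from the scanner error model) and with 4 other settings. The grey band holds the middle 50% of all genes, -0.16 to 0.11. Median scaling (orange squares) moves every probe to the right by 0.18, and Gng13, Gpr179 and Pcp2 lie furthest to the left under each setting among the probes that stand for a gene.

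All 9 genes had a negative difference by their brightest probe, and all 9 passed the filter on dim probes, against 51.3% negative among the 16187 genes read well above background on both arrays. Of the 9, 3 were lower by at least 0.32 on the log2 scale, where 12.5% of all genes were, and 0 were higher by as much, where 6.59% were. None of the 9 was 2-fold apart, where 1.74% of all genes were lower by that much and 0.618% were higher. The median of the 9 was -0.11, beside -0.0060 over all genes. The sign depends on the scaling. Processed signals, before any scaling, were lower on the array labelled Mef2d KO for 5 of the 9 genes and higher for the other 4. The 75th percentile was itself higher on that array (858 against 807). The share of all genes lower before scaling was not counted, so these counts have no background beside them. With median scaling, which moved the median of all genes to 0.17, 3 of the 9 were negative (background 22.6%), 0 were lower by at least 0.32 (background 6.83%) and 0 higher by as much (background 20.3%). None was 2-fold apart with that scaling either (background 1.06% lower and 0.933% higher). The 3 negative ones were Gng13 (-0.27), Gpr179 (-0.18) and Pcp2 (-0.16), and the median of the 9 was 0.066.

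The difference between the arrays varied with level. The median difference was -0.30 for the 1248 genes 4 to 5 log2 units below the 75th percentile and 0.038 for the 698 genes 4 to 5 units above it. Set against the genes in their own unit of level, all 9 lay below the median and 5 of the 9 below the lower quartile. Besides the 3 lowest these were Grm6, with a lower quartile of -0.060 at its level, and Trpm1, with -0.057. The distance to the median of the same level was -0.48 for Gng13, -0.32 for Gpr179, -0.31 for Pcp2, -0.16 for Trpm1 and -0.14 for Grm6, and between -0.079 and -0.042 for the other 4. Replicate spots of 1 probe above level -3 gave differences with a median SD of 0.061 (432 probes with replicate spots at any level), smaller than the error model's 0.20, and each probe of the 9 genes had 1 spot.

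**Figure D3:**
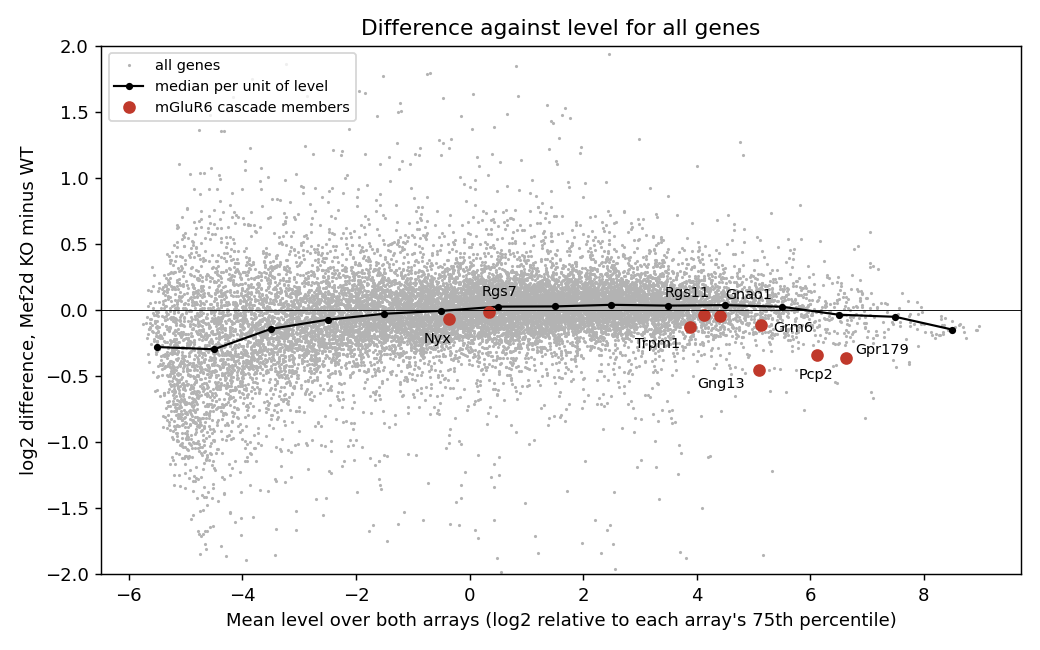
Log2 difference, Mef2d KO minus WT, against mean level for 16187 genes (grey), the median in each unit of level with at least 20 genes (black line) and the 9 mGluR6 cascade genes (red). The 9 lie on or below the black line, Gng13, Pcp2 and Gpr179 furthest from it, and 59 genes lie outside the plotted range of differences.

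The promoter windows of these genes were read from the RefSeq promoter table for GRCm38.p6, from 250 bases before to 50 after each start, in 14 windows for 9 of the genes (Lrit3 included). The windows were searched on both strands for 10 patterns, the MEF2 motif among them, and the patterns shown in capitals were picked after the matches had been seen. The MEF2 motif matched in 0 of the 14 windows, and in 3.19% of all 32851 windows of the table. TAATCC, the core bound by the retinal factors CRX and OTX2, matched in 1 of 14 (7.06% of all windows), GGGCGG in 3 of 14 (35.7%) and TATAAA in 1 of 14 (13.6%). Of the other 6 patterns, CAGCTG (16.3% of all windows), CTA followed by TAG 4 bases on (3.69%) and CTAAAAATA (0.517%) matched in 0 of the 14, TAATTA in 1 (5.29%), CATCTG in 4 (17.2%) and CANNTG, which includes CATCTG and CAGCTG, in all 14 (72.3%). Each of the 4 Pcp2 windows overlaps another, and the CATCTG matches in 2 of them are the same site. The counts are thus of windows and not of separate sites. For each of the 3 genes with the lowest differences 1 window is shown, and for Trpm1 the window with the TAATCC match. The first of 2 Gng13 windows was taken, the other having 3 GGGCGG matches, and for Pcp2 the 1 window of 4 with a TATAAA match. The windows are printed 5′ to 3′ along the strand of the gene, in lower case with matches to the first 4 of these patterns in capitals on either strand. The 2 GGGCGG matches of the Gng13 window overlap and form 1 run of capitals. Gng13 is at chr17:25716922-25717221 (plus strand), Gpr179 at chr11:97352307-97352606 (minus strand), Pcp2 at chr8:3625233-3625532 (minus strand) and Trpm1 at chr7:64153585-64153884 (plus strand).
Gng13: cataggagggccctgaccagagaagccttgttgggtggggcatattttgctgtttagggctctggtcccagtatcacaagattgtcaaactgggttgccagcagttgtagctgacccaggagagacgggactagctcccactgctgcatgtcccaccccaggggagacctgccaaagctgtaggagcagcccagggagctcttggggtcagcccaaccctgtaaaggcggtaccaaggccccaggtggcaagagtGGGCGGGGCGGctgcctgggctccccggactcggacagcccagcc
Gpr179: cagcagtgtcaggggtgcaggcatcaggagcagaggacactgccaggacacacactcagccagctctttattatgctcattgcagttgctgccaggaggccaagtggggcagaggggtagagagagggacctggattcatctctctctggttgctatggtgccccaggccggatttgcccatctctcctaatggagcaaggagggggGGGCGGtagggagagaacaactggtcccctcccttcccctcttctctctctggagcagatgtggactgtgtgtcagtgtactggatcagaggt
Pcp2: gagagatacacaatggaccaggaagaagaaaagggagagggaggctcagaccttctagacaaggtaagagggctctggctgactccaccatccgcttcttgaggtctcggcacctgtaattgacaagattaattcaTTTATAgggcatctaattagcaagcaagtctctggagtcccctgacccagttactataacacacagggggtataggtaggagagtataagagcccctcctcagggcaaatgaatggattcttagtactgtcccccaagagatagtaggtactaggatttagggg
Trpm1: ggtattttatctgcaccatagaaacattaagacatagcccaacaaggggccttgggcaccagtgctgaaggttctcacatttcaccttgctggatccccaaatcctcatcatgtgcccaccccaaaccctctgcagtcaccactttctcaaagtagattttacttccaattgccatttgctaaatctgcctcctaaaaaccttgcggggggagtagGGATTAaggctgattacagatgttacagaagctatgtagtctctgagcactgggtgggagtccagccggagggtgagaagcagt
Which start bipolar cells use was not given in the sources used here for Gng13 (2 windows), Pcp2 (4) or Trpm1 (2).

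The windows fell into CG-rich and CG-poor kinds. Gnao1 had 42 CG dinucleotides, Rgs7 had 34 and the second Gng13 window had 34, where the median of all windows was 7. The remaining 11 windows, those of Grm6, Nyx, Gpr179, Trpm1, Pcp2 and Lrit3 among them, had 1 to 9. Of the 3 genes with the lowest differences, Gpr179 and Pcp2 had CG-poor windows and Gng13 had 1 window of each kind. None of the 4 patterns in capitals lay in windows of all 3.

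The rest of the signalling machinery was read from gene lists of the same families. Median scaling adds 0.18 to every value that follows, which makes most small negative values positive. Of the medians of the signalling family and cell marker lists, those of rod bipolar (-0.23), cone (-0.11) and lens (-1.92) markers stayed negative with it. Of 5 G protein beta subunit genes none was 2-fold apart. Gnb3, the ON bipolar partner of Gng13, gave 33194 on the array labelled Mef2d KO and 30587 on the WT array, a difference of 0.031 ± 0.20. Gnb5, the partner of Rgs7 and Rgs11, differed by 0.081 ± 0.20. Gnb1, the rod transducin beta subunit, differed by -0.24, Gnb4 by -0.24 and Gnb2 by 0.13. Thus 2 of the 5 were negative (51.3% of all genes), and the list median was 0.031.

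Among the other R7 RGS genes and anchors 4 of 4 were negative by their brightest probe (51.3% of all genes), or 2 of 4 with median scaling (22.6%). Rgs9bp, the membrane anchor known as R9AP that holds Rgs11 in ON bipolar cells and Rgs9 in photoreceptors, differed by -0.27 ± 0.20, and its other probe by -0.22. Rgs7bp differed by -0.22 ± 0.20 and Rgs6 by -0.098, though the other Rgs6 probe stood at 0.066. Rgs9, the photoreceptor member of the family, differed by -0.0042. All 4 were within 0.32 of 0.

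Among 12 other GoLoco and Go regulator genes, Gpsm2, a GoLoco protein of spindle orientation, was 2.20-fold lower (-1.13 ± 0.0645, and -0.96 with median scaling). The others were within 2-fold, with Rgs14 at -0.44 (dim, and -0.076 with cyclic loess), Gpsm1 at 0.29 and Gpsm3 at -0.23, and a list median of -0.11. Rgs20 differed by -0.22 by its brighter probe and by -3.76 ± 0.23 by its other probe, which gave 40.7 on the array labelled Mef2d KO and 517 on the WT array, so its probes disagree.

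Receptor and channel relatives gave small values. The 7 other metabotropic glutamate receptors lay between -0.13 and 0.0012, among them the group relatives of Grm6, Grm8 (-0.13), Grm7 (-0.052) and Grm4 (0.0012), with Grm5 at -0.12 and Grm3 at -0.085. Of 6 other TRPM channels read on both arrays, Trpm2, a channel of immune cells and neurons, was highest at 0.59 ± 0.21 (0.39 with normexp background), and the others were Trpm4 (-0.27), Trpm8 (-0.24), Trpm6 (0.20), Trpm7 (0.095) and Trpm3 (0.013). Trpm4, Trpm6 and Trpm8 were dim, with cyclic loess values of -0.069, 0.42 and 0.18, so Trpm8 changed sign. Trpm5 was well above background in WT only. By its dim value on the array labelled Mef2d KO it differed by -0.43 ± 0.43, or 1.35-fold lower.

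Of 11 orphan class C receptors and leucine-rich repeat synaptic proteins, none was 2-fold apart. Lrit1, a photoreceptor leucine-rich repeat protein related to the unmeasured Lrit3, differed by 0.27 ± 0.20, Lrit2 by -0.024 and Gpr158, the closest relative of Gpr179, by -0.099. Gprc5d differed by -0.43 but was dim (-0.12 with normexp background), and Gprc5b differed by -0.20. Lrrtm3 differed by 0.14 by its brighter probe (0.014 with normexp background) and by -0.086 by its other probe. Elfn1, whose protein on rod terminals contacts mGluR6, was near background on both arrays (11.0 on the array labelled Mef2d KO and 17.3 on the WT array) and passed as well above it on the WT array only.

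Of 7 other Gi family alpha genes none was 2-fold apart, with Gnat3 at -0.57, the rod transducin Gnat1 at -0.43, Gnaz at -0.28 and Gnai1 at -0.17. Of 11 other gamma subunit genes none was 2-fold apart, with Gng8 at 0.82, the rod gamma Gngt1 at -0.62, Gng4 at -0.24 and Gng3 at -0.17. The difference of Gng13 thus lay between those of Gngt1 and Gng4, and the median of the other gamma genes was 0.035.

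**Figure D4:**
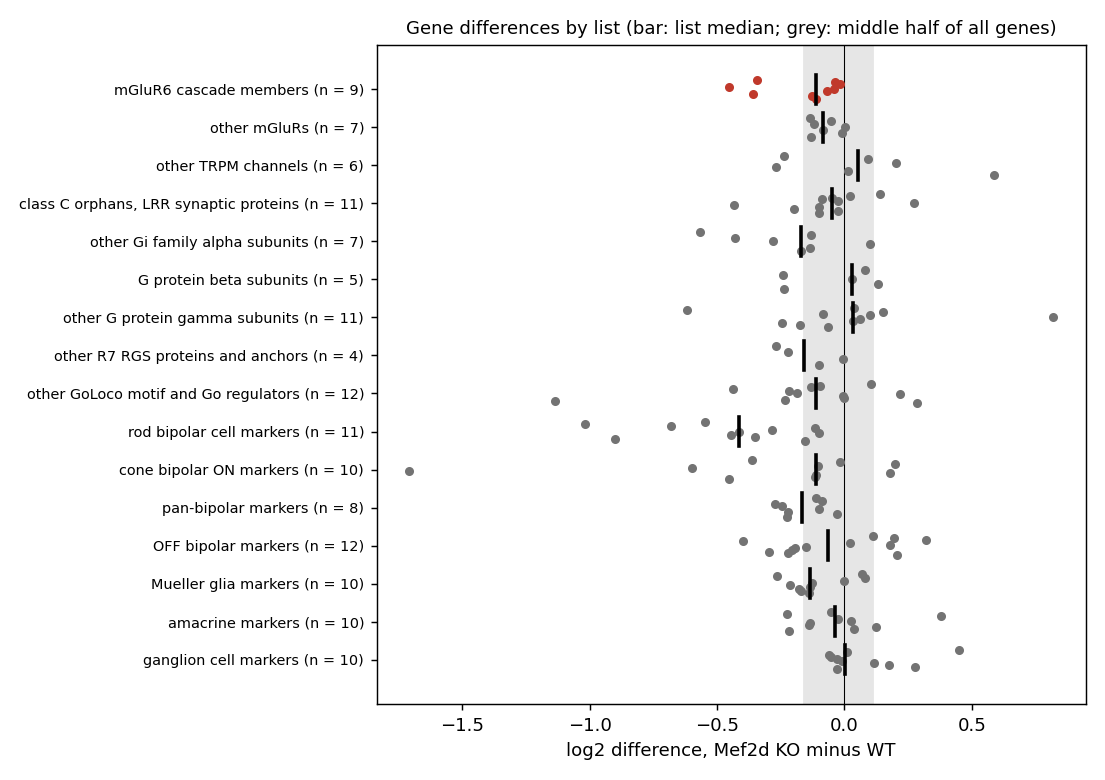
Log2 difference, Mef2d KO minus WT, of each gene read on both arrays, for the mGluR6 cascade genes (red, top) and 15 lists of related genes and retinal cell markers (grey). Black bars are list medians and the band is the middle 50% of all genes. The mGluR6 cascade median of -0.11 lies between the lowest and highest list medians, and the rod bipolar marker median of -0.41 lies furthest to the left.

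The cascade is used by rod bipolar and ON cone bipolar cells, and the markers of these cells were read in the same way. Of 11 rod bipolar markers, Lrtm1 was 2.03-fold lower (-1.02 ± 0.20, and -0.84 with median scaling) and 7 were lower by at least 0.32 (12.5% of all genes), or 4 with median scaling (6.83% of all genes), among them the transcription factor gene Sebox (-0.90) and the trophoblast glycoprotein gene Tpbg (-0.68). The list median was -0.41 and all 11 were negative (51.3% of all genes), or 8 with median scaling (22.6% of all genes). The kinase Prkca, the standard marker of rod bipolar cells, differed by -0.16 ± 0.20 and the calcium-binding protein gene Cabp5 by -0.099. Strip2 differed by -0.55. Some of these markers are shared with other retinal cells, as Car2 (-0.44) is with Mueller glia.

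The markers of ON cone bipolar cells, of which Gng13 is one, held 1 gene 2-fold lower, the neuropeptide gene Cck (-1.71), which amacrine cells also express. Their median was -0.11, with Htr3a at -0.60 and Cntnap5a at -0.36, both dim (-0.31 and -0.096 with normexp background), and Nnat at 0.20 and Lhx3 at 0.18. Lhx3 was also counted among the OFF bipolar markers below, so the ON cone and OFF lists share a gene. The 8 pan-bipolar markers had a median of -0.17, with Neurod4 at -0.27, Lhx4 at -0.24 and Vsx1 at -0.22, and the 12 OFF bipolar markers, cells that lack the mGluR6 cascade, had a median of -0.065 that turned positive under median scaling (0.11), quantile normalization (0.055), cyclic loess (0.046) and normexp background (0.051), with Pcdh17 at -0.40, Fezf1 at 0.32, Tacr3 at -0.30 and Vsx1 again. The mGluR6 cascade median of -0.11 lies among those of the bipolar lists other than the rod bipolar one.

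Markers of cells outside the bipolar class had medians that ran from -2.10 for lens and -0.29 for cones to 0.00047 for ganglion cells. The median was -0.14 for 10 Mueller glia markers, with Clu at -0.26, Kcnj10 at -0.21, Slc1a3 at -0.18 and Glul at -0.17. Of the 10, 8 were negative (51.3% of all genes), or 2 with median scaling (22.6% of all genes), and the highest stood at 0.083. Rod markers had -0.12, with Sag at -0.82, Gngt1 at -0.62 and Gnat1 at -0.43. In the other direction stood Pde6b at 0.38, Nr2e3 at 0.37 and Cngb1 at 0.33. Of the 12 rod markers 5 were lower and 3 higher by at least 0.32 (12.5% and 6.59% of all genes). With median scaling 2 were lower and 3 higher by as much (6.83% and 20.3% of all genes). Amacrine markers had -0.038, with Chat at 0.38, Th at -0.22, Gad1 at -0.22 and Slc32a1 at -0.14, and ganglion cell markers 0.00047 (-0.015 with cyclic loess), with Isl2 at 0.45, Slc17a6 at 0.28, Nefl at 0.17 and Nefm at 0.12. Photoreceptor partners of the ON bipolar synapse had a median of -0.038, with the glutamate transporter Slc17a7 at -0.48, Cabp4 at 0.33, Cacnb2 at -0.30 and Egflam, or pikachurin, at 0.20. The part of cell makeup in the values of Gng13, Gpr179 and Pcp2 was not tested.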

How the data were processed

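RNA of mouse retina was amplified with Cy3 labelling for 1 one-colour Agilent array per genotype, per the labels' protocols. Per the file headers, the deposited intensities are processed signals of Agilent Feature Extraction 10.10.1.1, with the background subtracted and a spatial trend removed. The deposited series table holds these intensities times 1 constant per array (1.76 for Mef2d KO and 1.88 for WT). It is linear and not centred, with column medians of 136.6 for Mef2d KO and 155.1 for WT, and the basis of the constants was not given in the sources used here.

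Control spots and outlier spots (126 on the array labelled Mef2d KO and 106 on the WT array) were left out, processed signals were taken as log2 relative to each array's 75th percentile over 59305 probe spots, and spots of 1 probe were averaged, leaving 55669 probes. The files hold no gene name column, so 48.9% of the probes were named, through RefSeq accessions of the GRCm38.p6 table or, for a few, a symbol given in their place. A gene's value is that of its brightest probe over both arrays. Counts used 16187 genes whose probe exceeded background on both, by at least 0.5 of its spots. The first rule was any spot, with the floor taken over averaged probes, and it was replaced after its Xist bound was seen. A gene above it on 1 array only was given a bound against the higher of its own dim value and the lowest spot well above background. For Trpm5 and Lim2 this was their own dim value, so their folds are plain ratios and not minimum values.

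The members, lists and alternatives were chosen with earlier results of these data known. The genes named were the members, the MEF2 family, the sex-linked transcripts, every beta subunit, R7 RGS gene and anchor, and in each list those 2-fold apart or the 4 with the largest differences; other genes (Grm4, Grm7, Lrit2, Gpr158, Prkca, Cabp5, Car2, Trpm3, Trpm5, Trpm7, Elfn1, Rgs20, Bfsp1, Lim2, Pde6b, Nr2e3, Cngb1, Cnga3, Cngb3, Gnat2, Gngt2, Pde6c, Nnat, Lhx3) were named after their values were seen. Some genes that the rule takes are not reported here. Precision is limited by the number of arrays. The computations were tested on simulated data and run in Python 3.11.15 (pandas 2.3.3, numpy 2.4.6, matplotlib 3.10.9) and R 4.3.3 (limma 3.58.1). Alternatives were other scalings, quantile normalization, cyclic loess, normexp background (offset 50, on median signals since no mean spot signal is given) with quantile normalization, the series table, other probe rules and other filters.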

Additional observations from a re-analysis of the deposited data

How the results depend on the processing

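The count of mGluR6 cascade genes at least 2-fold lower or higher was 0 under each of the 11 alternatives. The 9 negative differences, the 3 genes lower by at least 0.32 and the median of -0.11 became 3, 0 and 0.066 with median scaling, which adds 0.18 to every difference. Under the other 10 alternatives all 9 stayed negative, the median lay between -0.13 and -0.083, and 3 genes were lower by at least 0.32, or 2 with normexp background. Of these, the series table, naming by RefSeq alone, the filters on dim probes and calling by any spot gave the median of -0.11 again. They could hardly move these probes and are no separate check. All 72 values of single cascade genes under 8 alternatives moved by less than their error, and 34 of 1384 values of other listed genes moved by more. The shift of 0.18 by median scaling is below the error of 0.20, so the count for the cascade does not show stability. With median scaling 6 of the 9 genes turned positive. Genes at least 2-fold lower numbered 282. They numbered 171 after median scaling, 165 after quantile normalization, 163 after cyclic loess, 95 after normexp, 1739 when dim probes were kept and 117 above level -3. Genes at least 2-fold higher numbered 100, against 151, 156, 154, 63 and 225 in the first 5 of these settings. Lower genes made up 73.8% of those 2-fold apart, and 53.1%, 51.4%, 51.4% and 60.1% in the first 4. Calling a probe by any spot, an alternative chosen after seeing the data, gave 284 lower and 100 higher genes and an Xist bound of 97.65-fold in place of 51.7-fold, and changed no cascade value. The cause of these shifts was not tested. No paired analysis was possible because each genotype has 1 array, and signal over background limits the dim probes most.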
